A study of Mus musculus with 10 samples.

Results

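The heart is paced and driven by autonomic receptors that meet at cyclic AMP. Noradrenaline acts on the β1-adrenergic receptor (Adrb1), which couples through a stimulatory G protein to adenylyl cyclase, the enzyme that makes cyclic AMP; in cardiomyocytes the main cyclases are types 5 and 6 (Adcy5, Adcy6). Acetylcholine from the vagus acts on the muscarinic M2 receptor (Chrm2) and adenosine on the A1 receptor (Adora1), and both couple to inhibitory G proteins such as Gαi2 (Gnai2), which restrain the cyclases and open an atrial potassium channel. Rgs6 shortens that inhibitory signal by speeding GTP hydrolysis, and the α1-adrenergic receptors (Adra1a, Adra1b) couple to phospholipase C. Atria are rich in both arms of this control.

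The accessibility of chromatin in and near these 9 genes was described in atrial cardiomyocyte nuclei by ATAC-seq, which uses a transposase to insert sequencing adapters where DNA is not wrapped tightly, so that read counts follow how open a stretch of chromatin is. A region was given to a gene when it overlapped the RefSeq span of that gene, or when it lay outside every protein-coding span and had that gene as its nearest within 100000 bp. This rule found 38 regions of the 10010 listed (0.380%), at 8 of the 9 genes. The deposited table lists only regions that had already been called as different between the genotypes, and the 9 genes were selected on measured values of the same contrast, so the genotype differences are given as a description, with no test. A nearest gene need not be the gene that a region acts on.

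The Tbx5G125R group held mice heterozygous for a glycine to arginine point mutation in the T-box transcription factor gene Tbx5, made with CRISPR-Cas9 in the germline and so present in every cell, and the Control group held mice labelled Control with no further detail in the labels. Left and right atria of each animal, 8 to 12 weeks old, were pooled, and nuclei were sorted by antibody on PCM1, a centriolar satellite protein that marks the nuclear envelope of cardiomyocytes. There were 4 animals per group; Control animals 1 and 3 had 2 libraries each, which were added together, giving 8 animals from 10 libraries. Values are scaled counts, the raw counts of an animal divided by its scale factor, and log2 fold changes are Tbx5G125R over Control with the standard error (SE) of the fit.

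Counts summed over the table ran from 630392 in Control 2 to 2776475 in Control 3, and from 1716962 to 2414261 in Tbx5G125R animals; the depth of the whole libraries was not analysed here. The highest count of any library at any listed region was 995, so regions with more reads than that are not described. All 7 cardiomyocyte markers of a fixed list, Pcm1 included, and all 4 atrial cardiomyocyte markers had listed regions, whereas none of 4 leukocyte markers did. A listed region also lay at 1 of 6 fibroblast, 2 of 5 endothelial, 2 of 5 smooth muscle and pericyte and 2 of 13 autonomic neuron and glia markers. Over all genes, 5698 of 21900 protein-coding genes had a listed region. Because the table lists only regions called as different, these counts do not show which cell types were present. In bulk nuclei, a change in the share of nuclei of 1 type and a change in accessibility per nucleus cannot be told apart.

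Of the 38 regions, 2 lay over an annotated gene start, that of Adrb1 and that of Chrm2, and these promoters are shown. For the 5 regions of Adcy6 and Gnai2 the overlap with a start was not analysed here. The 250 bases before each start are given as the RefSeq reference (GRCm38.p6), on the strand of the gene, with capitals marking matches to a GC box (GGGCGG or CCGCCC) or a CACCC box (CCACCC or GGGTGG). Adrb1 lies on the plus strand and its window is chr19:56721867-56722116, whole inside region 3 of that gene. Chrm2 also lies on the plus strand and its window is chr6:36387834-36388083, whole inside region 1 of that gene.
Adrb1 promoter: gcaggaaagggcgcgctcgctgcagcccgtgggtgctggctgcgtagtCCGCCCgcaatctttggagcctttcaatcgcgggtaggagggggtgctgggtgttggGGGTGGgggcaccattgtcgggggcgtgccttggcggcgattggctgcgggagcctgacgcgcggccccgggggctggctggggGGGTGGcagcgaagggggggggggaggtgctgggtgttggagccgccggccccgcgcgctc
Chrm2 promoter: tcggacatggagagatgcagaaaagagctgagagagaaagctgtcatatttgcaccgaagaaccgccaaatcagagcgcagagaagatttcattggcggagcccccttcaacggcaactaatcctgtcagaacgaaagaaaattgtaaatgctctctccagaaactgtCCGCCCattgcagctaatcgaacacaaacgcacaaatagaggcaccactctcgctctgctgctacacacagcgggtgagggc
The Adrb1 window was 74.0% G and C, against a median of 52.4% over 32851 mouse promoter windows of the same length, and held 1 GC box and 2 CACCC boxes. The Chrm2 window was 50% G and C and held 1 GC box. A GC box was found in 32.7% and a CACCC box in 28.1% of all promoter windows. Windows of 6 of the 9 genes could be matched (Adrb1, Adra1b, Chrm2, Adora1, Adcy5 and Rgs6), some with several starts. None of their windows held, on either strand, the T-box motif AGGTGT (11.8% of all promoters), the GATA motif AGATAA (9.99%), the MEF2 core TATTTATA (1.56%) or the cyclic AMP response element TGACGTCA (1.55%). These are matches of letters in a window and not binding sites.

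All 38 regions were more accessible in Tbx5G125R than in Control animals on the scale used here, although 15 of them fell below 0 when each animal was set to its own median over the table. The difference in log2 terms lay between 0.48 and 1.20 (median 0.73, quartiles 0.66 and 0.90). Of all listed regions, 88.4% were higher (gained) and 11.6% lower (lost), and the median of all 8846 gained regions was 0.75. At least a 2-fold difference was found at 6 of the 38 regions (15.8%), against 22.9% of gained regions and 20.2% of the table. The 4 Tbx5G125R animals lay above all 4 Control animals at 36 of the 38 regions (94.7%), against 95.3% of gained regions and 84.2% of the table.

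The calls were those of edgeR's quasi-likelihood fit over all 10010 regions. DESeq2 and limma on the same scale also called 38 regions higher and 0 lower, as they did nearly all gained regions of the table (8843 to 8846 of 8846, with a low count filter or first libraries too). The level of the genotypes relative to each other rests on 1 offset. When each animal was instead set to its own median over the table, which shifted the middle of the whole table from 0.72 to 0.027, the median of the 38 regions became 0.045, with 23 regions above and 15 below 0. On that scale 4 regions were still called higher, namely regions 2 and 9 of Adrb1 and regions 1 and 2 of Adcy6. That is 10.5% of the 38, against 8.55% of the table called higher and 12.3% called lower on the same scale. The regions below 0 on it were 1 of the 10 at Adrb1, 3 of 5 at Adcy5, 4 of 11 at Chrm2, 1 of 2 at Adora1, both at Gnai2, the one at Rgs6 and 3 of 4 at Adra1b, and none of the 3 at Adcy6. All values that follow are on the scale with the offset.

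**Figure D1:**
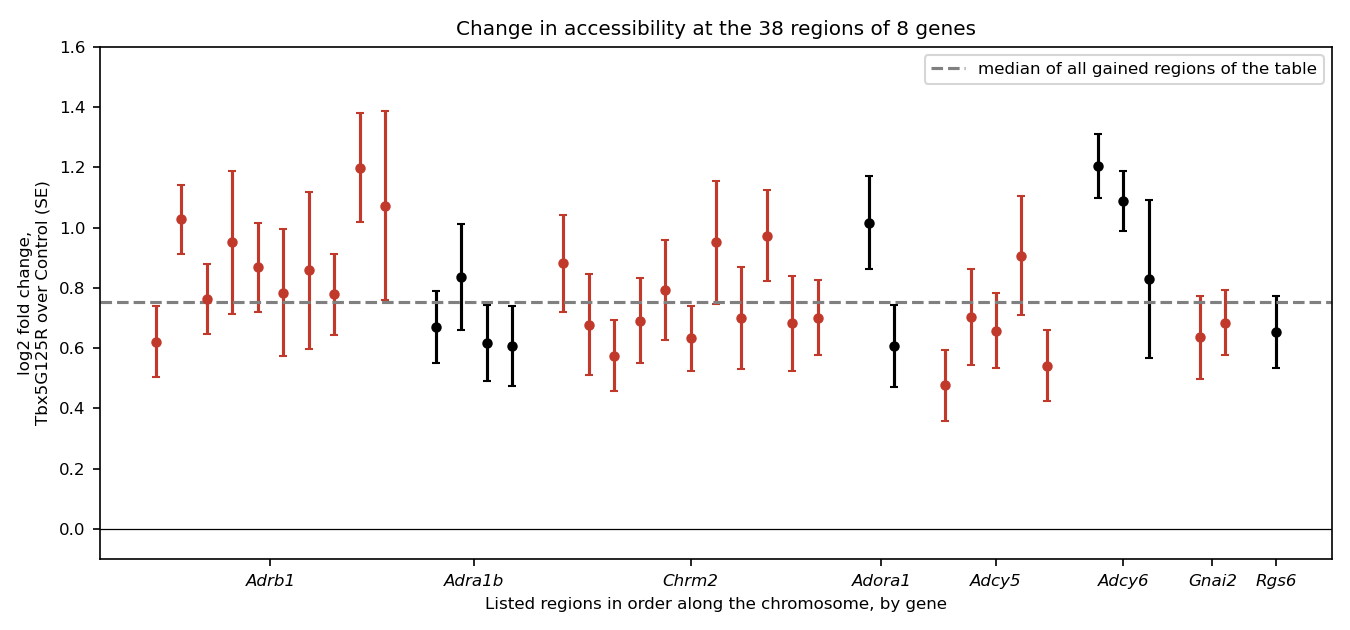
Log2 fold change (Tbx5G125R over Control, bars are SE of the fit, n=4 animals per group) of each of the 38 regions, in order along the chromosome within each gene; colour alternates between genes only to set them apart, and the dashed line is the median of all gained regions, 0.75. Every point lies above 0, between 0.48 and 1.20 (15 would lie below 0 with each animal at its own table median), and the highest belong to Adcy6 and Adrb1.

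Among the stimulatory genes, Adrb1 carried 10 regions, 8 of them outside its span of 3.03 kb (chr19:56722117-56725150). Of the 5698 protein-coding genes with a listed region, 24 had at least 10. The regions covered a stretch of 79.5 kb: 2 lay 41617 and 45117 bp upstream of the span, 1 over the start, 1 inside the gene, and 6 beyond its end, up to 29601 bp from the span. Log2 fold changes lay between 0.62 and 1.20 (median 0.86), and 3 of the 10 were at least 2-fold higher.

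Region 3, over the start of Adrb1 (chr19:56721251-56722500, 1250 bp), had the highest scaled counts of the 10. Control 1 to 4 gave scaled counts of 172, 214, 193 and 255, and Tbx5G125R 1 to 4 gave 296, 361, 373 and 355. The lowest Tbx5G125R animal lay above the highest Control animal, and the log2 fold change was 0.76 ± 0.12 (SE). This is the region that holds the promoter printed above.

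Region 9 (chr19:56750501-56751750), 25351 bp beyond the gene, differed most. Its scaled counts were 47.6, 39.5, 54.1 and 62.1 in Control 1 to 4, and 96.0, 136, 118 and 123 in Tbx5G125R 1 to 4. The groups did not overlap, and the log2 fold change was 1.20 ± 0.18. Of the pair far upstream, region 2 (chr19:56679501-56680500, 41617 bp from the span) went from 152 ± 12.0 in Control to 303 ± 38.1 in Tbx5G125R (mean ± SD, n=4), and region 1, further out (chr19:56676251-56677000), from 149 ± 16.0 to 224 ± 10.8. Their log2 fold changes were 1.03 ± 0.12 and 0.62 ± 0.12, the latter being the lowest of the gene.

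The remaining 6 Adrb1 regions lay inside the gene (region 4, 0.95 ± 0.24) and beyond it (region 5, 0.87 ± 0.15; region 6, 0.78 ± 0.21; region 7, 0.86 ± 0.26; region 8, 0.78 ± 0.13; region 10, 1.07 ± 0.31). The 2 regions of the 38 whose groups overlapped were both among them and both had low counts. Region 7 (chr19:56741751-56742250) had a highest Control value of 45.6 and a lowest Tbx5G125R value of 45.4. Region 10 (chr19:56754751-56755750), with the lowest Control mean of the 38 at 19.5 ± 6.71, had 29.1 in its highest Control animal and 26.1 in its lowest Tbx5G125R animal. At regions 4 and 10 the raw count of Control 2 was 6, so the value of that animal rests on few reads.

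**Figure D2:**
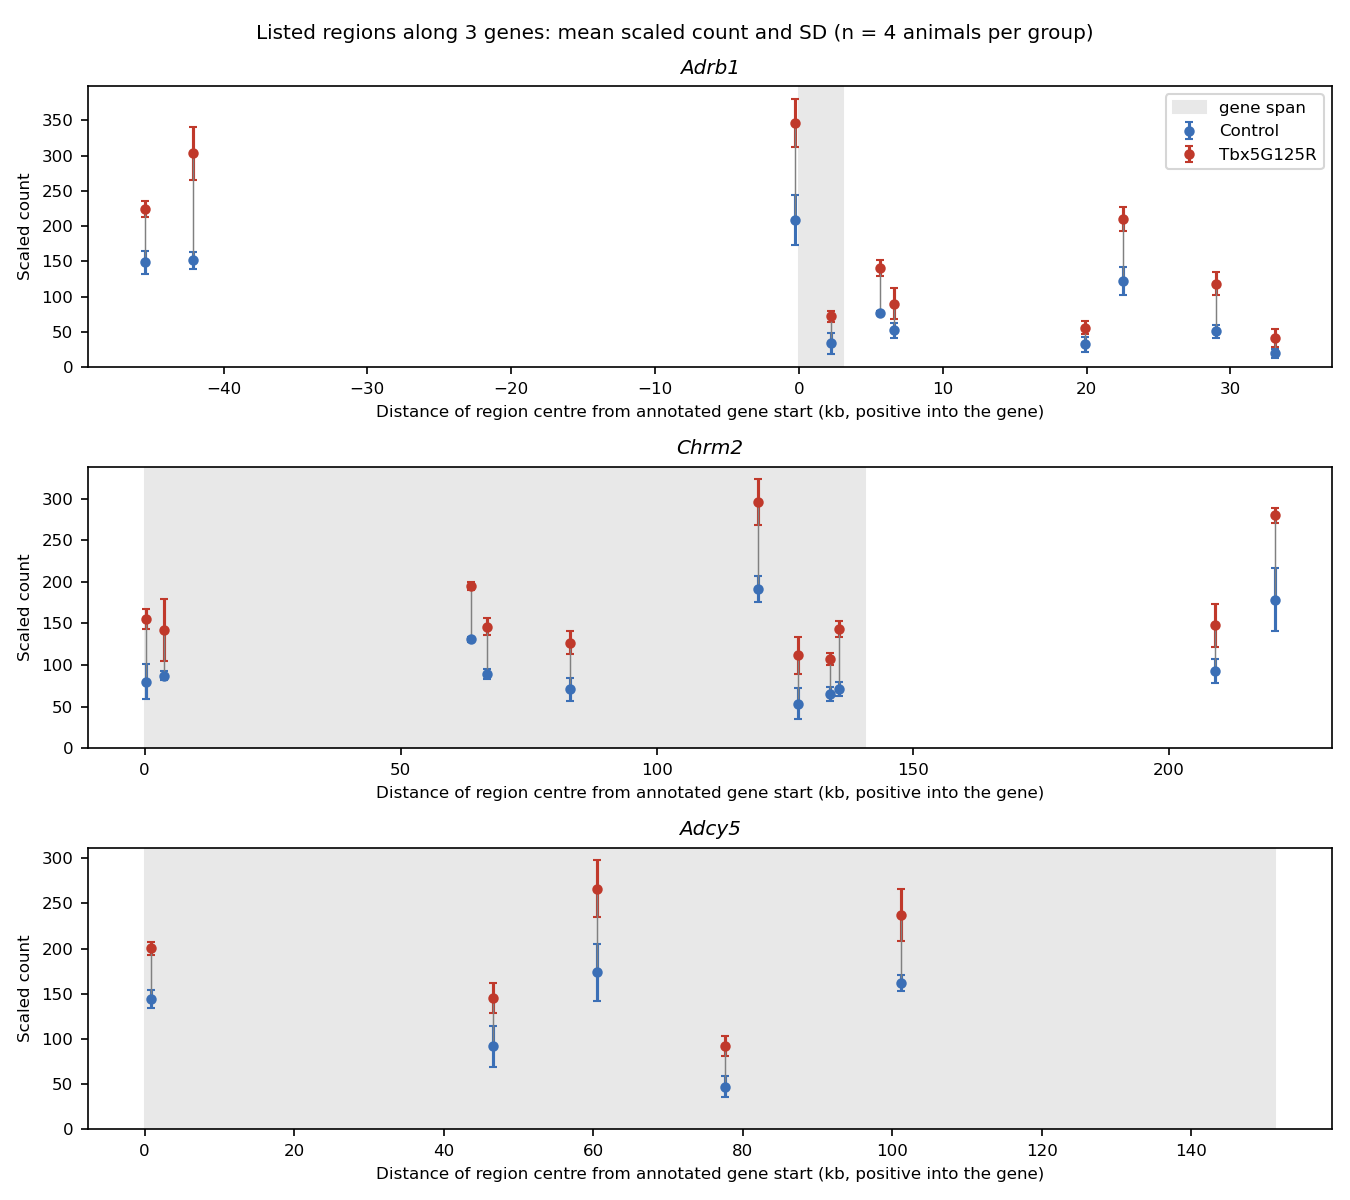
Mean scaled count (vertical axis; bars are SD, n=4 animals per group) of each listed region of Adrb1, Chrm2 and Adcy5 against the distance of the region centre from the annotated gene start in kb; grey marks the gene span. On the scale with the offset, the Tbx5G125R mean (red) lies above the Control mean (blue) at each region (8 of these 26 turn with each animal at its own table median); Adrb1 has most of its regions outside its short span, Chrm2 has 2 outside, and Adcy5 has none.

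Adcy5 (chr16:35154494-35305743) encodes one of the 2 main cardiac cyclases and had 5 regions, all inside its span of 151 kb. Log2 fold changes lay between 0.48 and 0.91 (median 0.66). Region 1 (chr16:35155501-35156000), 637 bp past the annotated start, had the lowest log2 fold change of the 38 regions, 0.48 ± 0.12. It went from 144 ± 9.78 to 200.2 ± 7.41, and its groups still did not overlap.

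Region 3 of Adcy5 (chr16:35215001-35215750) had the highest scaled counts of the gene. There the scaled counts were 158, 221, 160.1 and 156 in Control 1 to 4, and 275, 302, 263 and 225 in Tbx5G125R 1 to 4. Control 2 stood well above the other Control animals and just below the lowest Tbx5G125R animal, and the log2 fold change was 0.66 ± 0.12.

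Region 4 of Adcy5 (chr16:35232251-35232750) differed most. Control 1 to 4 had scaled counts of 41.8, 39.5, 64.2 and 43.1, against 90.7, 106, 78.9 and 90.8 in Tbx5G125R 1 to 4. Here it was Control 3 that stood above the others, the groups did not overlap, and the log2 fold change was 0.91 ± 0.20. Regions 2 (chr16:35201001-35202000) and 5 (chr16:35255751-35256250) had log2 fold changes of 0.70 ± 0.16 and 0.54 ± 0.12.

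Adcy6 (chr15:98589978-98610287), the other main cardiac cyclase, had only 3 regions but the 2 widest of the 38. Regions 1 and 2 measured 4000 and 4500 bp and lay 500 bp apart, so that the pair covered 8.5 kb, or 41.9% of the span. The table held 21 regions of at least 4000 bp.

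Region 1 of Adcy6 (chr15:98601001-98605000) had the largest log2 fold change of the 38. In Control 1 to 4 it had scaled counts of 174, 151, 187 and 194, against 413, 380.003, 378 and 477 in Tbx5G125R 1 to 4. The groups were far apart, by 184 scaled counts between their nearest animals, and the log2 fold change was 1.20 ± 0.11.

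Region 2 of Adcy6 (chr15:98605501-98610000), which ends just inside the high-coordinate edge of the gene, had the highest scaled counts of the 38. They were 206, 262, 247 and 284 in Control 1 to 4, and 535, 501, 548 and 508 in Tbx5G125R 1 to 4. No Tbx5G125R animal came near the Control animals, and the log2 fold change was 1.09 ± 0.098. Scaled counts are not per length, and the sources used here do not say whether they cover the merged region or its 500-bp bin, so an order of scaled counts among regions of different width is not an order of accessibility. Region 3, a 500-bp region of low counts 5464 bp from the span (chr15:98615751-98616250), had a log2 fold change of 0.83 ± 0.26 and groups that were barely apart, by 1.11 scaled counts.

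**Figure D3:**
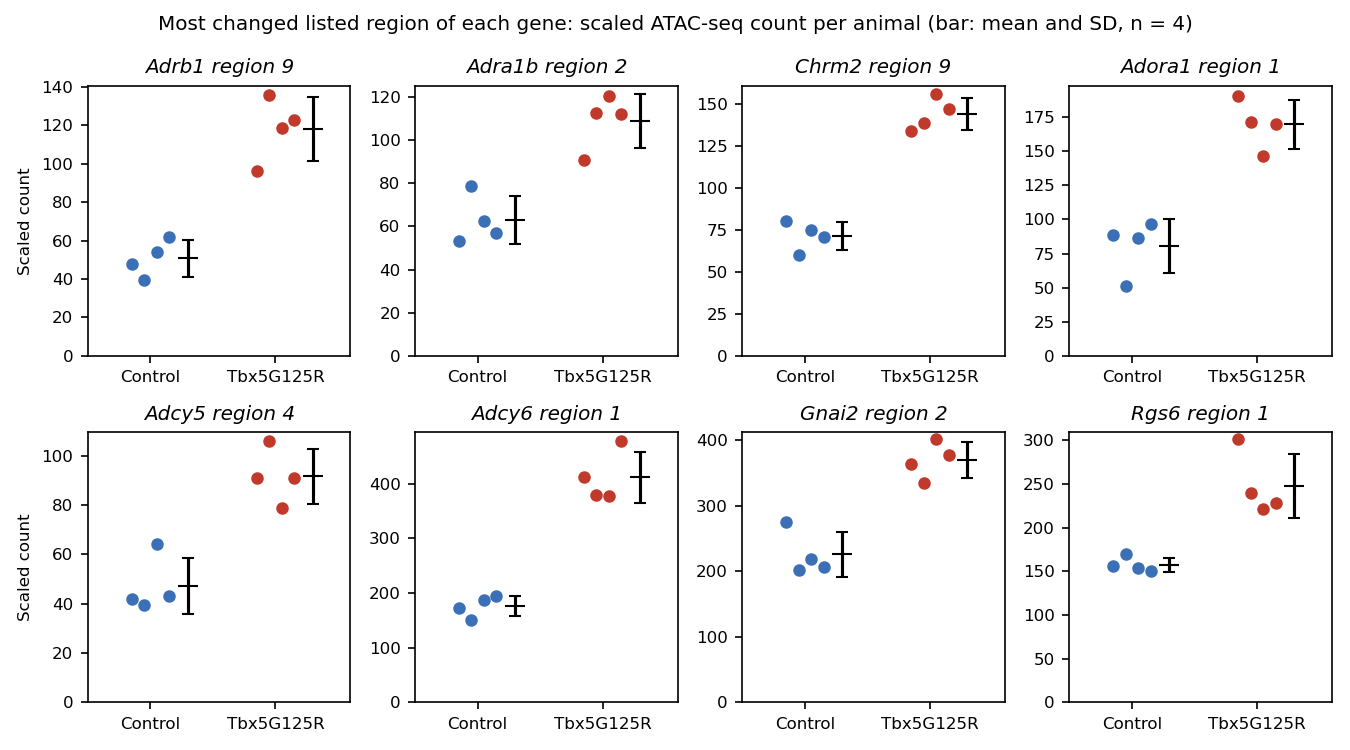
Scaled ATAC-seq count of each animal (points, in replicate order within each group) at the region of largest log2 fold change of each of the 8 genes, with the mean and SD (bars, n=4 per group) and axes that start at 0. On the scale with the offset, the 4 Tbx5G125R animals lie above the 4 Control animals in all 8 panels (the fitted changes at Gnai2 and Rgs6 turn below 0 with each animal at its own table median); the smallest gap between the groups, 11.8 scaled counts, is in the Adra1b panel.

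Among the inhibitory genes, Chrm2 (chr6:36387991-36528638) had 11 regions, the most of the 9 genes, and 18 genes of the table had at least as many. They covered 221.5 kb: 1 over the start, 8 inside the span and 2 beyond it, at 68113 and 79863 bp. Log2 fold changes lay between 0.58 and 0.97 (median 0.70), and none reached 2-fold. All 11 regions had groups that did not overlap, as did 95.3% of all gained regions.

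Region 1, over the start of Chrm2 (chr6:36387751-36389000), holds the promoter printed above. Its scaled counts were 96.3, 65.01, 100.5 and 58.3 in Control 1 to 4, and 155, 139, 166 and 160.4 in Tbx5G125R 1 to 4. The Control animals fell into a higher and a lower pair and the Tbx5G125R animals were closer together, and the log2 fold change was 0.88 ± 0.16.

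Region 9 of Chrm2 (chr6:36523251-36524250), near the far end of the gene, differed most. There the scaled counts were 80.1, 60.4, 74.96 and 71.0 in Control 1 to 4, and 134, 139, 156 and 147 in Tbx5G125R 1 to 4. Each group was tight beside the distance between them, and the log2 fold change was 0.97 ± 0.15. Its neighbours on the side of the gene start, regions 7 and 8, had log2 fold changes of 0.95 ± 0.20 and 0.70 ± 0.17.

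Region 6 of Chrm2 (chr6:36507251-36508500) had the highest scaled counts of the gene. Control 1 to 4 had scaled counts of 185, 176, 190.2 and 213, against 276, 279.95, 293 and 336 in Tbx5G125R 1 to 4. The groups were well apart, and the log2 fold change was 0.63 ± 0.11. The smallest difference was at region 3 (chr6:36451501-36452000), which was also the steadiest of the gene: 131 ± 2.99 in Control and 196 ± 4.98 in Tbx5G125R animals, a log2 fold change of 0.58 ± 0.12. Regions 2, 4 and 5 had log2 fold changes of 0.68 ± 0.17, 0.69 ± 0.14 and 0.79 ± 0.16.

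The 2 regions beyond Chrm2 mark the edge of the rule. Region 11 (chr6:36608501-36609250), at 79863 bp the farthest region included, went from 179 ± 37.9 to 280.2 ± 8.87, a log2 fold change of 0.70 ± 0.13. Region 10 had one of 0.68 ± 0.16. The nearest region left out by the limit of 100000 bp also had Chrm2 as its nearest gene, at 398491 bp (chr6:35988751-35989500), with a log2 fold change of 0.74 ± 0.13.

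Adora1 (chr1:134199215-134235457) had 2 regions inside its span. Region 1 (chr1:134205001-134205750) had scaled counts of 88.2, 51.1, 86.2 and 96.3 in Control 1 to 4, and 191, 171, 147 and 170.1 in Tbx5G125R 1 to 4. Control 2, the animal with the fewest counts over the table, was the lowest of all, the groups did not overlap, and the log2 fold change was 1.02 ± 0.15.

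Region 2 of Adora1 (chr1:134234251-134234750) began 106 bp past the second of 2 annotated starts on the minus strand. Its scaled counts were 105, 95.2, 114 and 100.1 in Control 1 to 4, and 138, 155, 172 and 174 in Tbx5G125R 1 to 4. The groups did not overlap, and the log2 fold change of 0.61 ± 0.14 was lower than that of region 1, although that difference was not tested.

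Gnai2 (chr9:107614125-107635391) had 2 regions. Region 2 (chr9:107635001-107636000), over the high-coordinate edge of the span, had scaled counts of 275, 202, 219 and 207 in Control 1 to 4, and 364, 335, 401 and 377 in Tbx5G125R 1 to 4. Control 1 was the highest of its group and still below every Tbx5G125R animal, and the log2 fold change was 0.69 ± 0.11. Region 1, inside the gene (chr9:107619251-107619750), went from 121 ± 21.2 to 193 ± 25.6, a log2 fold change of 0.64 ± 0.14.

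Rgs6 (chr12:82616551-83162061), the longest of the 9 genes at 545.5 kb, had 1 region. It lay near the high-coordinate end of the gene (chr12:83144751-83145750), far from the annotated start. Its scaled counts were 156, 169, 154 and 151 in Control 1 to 4, and 301, 240, 221 and 228 in Tbx5G125R 1 to 4. The Control animals were close together, Tbx5G125R 1 stood above its group, and the log2 fold change was 0.65 ± 0.12.

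Of the α1-adrenergic receptors, Adra1b (chr11:43774605-43901250) had 4 regions, 1 inside the span and 3 upstream of it on the minus strand. Region 1 (chr11:43820751-43821500), inside the gene, had scaled counts of 210.1, 197, 190.2 and 218 in Control 1 to 4, and 421, 308, 304 and 272 in Tbx5G125R 1 to 4. The groups did not overlap, Tbx5G125R 1 was far above its group, and the log2 fold change was 0.67 ± 0.12.

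Region 2 of Adra1b (chr11:43912001-43912750), 10751 bp upstream, differed most. Its scaled counts were 53.4, 78.9, 62.7 and 57.0 in Control 1 to 4, and 90.7, 113, 120.3 and 112 in Tbx5G125R 1 to 4. Control 2 and Tbx5G125R 1 came closest to each other without overlapping, and the log2 fold change was 0.84 ± 0.18. Regions 3 (chr11:43925251-43926000) and 4 (chr11:43929001-43929750) had log2 fold changes of 0.62 ± 0.12 and 0.61 ± 0.13.

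Adra1a (chr14:66635251-66771240), the other α1 subtype among the 9 genes, had no listed region by the rule. The table held 8 gained and no lost regions within 250 kb of its span that belong to other genes. Because the table lists only regions called as different and none with a very high count, nothing is said here of the accessibility of Adra1a.

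The 38 regions resembled the other gained regions in width, with a median of 750 bp in both sets. Their Control levels were somewhat lower, at a median scaled count of 98.3 (19.5 to 250) against 119, and so were their Tbx5G125R levels, at 165 against 200.2. In the table, the largest log2 fold changes were listed at low regions, as the plot of level against change shows. The spread between animals was close to that of all gained regions, with a median coefficient of variation of 15.8% against 13.5% in Control and 11.1% against 11.6% in Tbx5G125R animals. By position, 21 regions lay inside a span, 3 over an edge and 14 outside, at 2101 to 79863 bp.

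**Figure D4:**
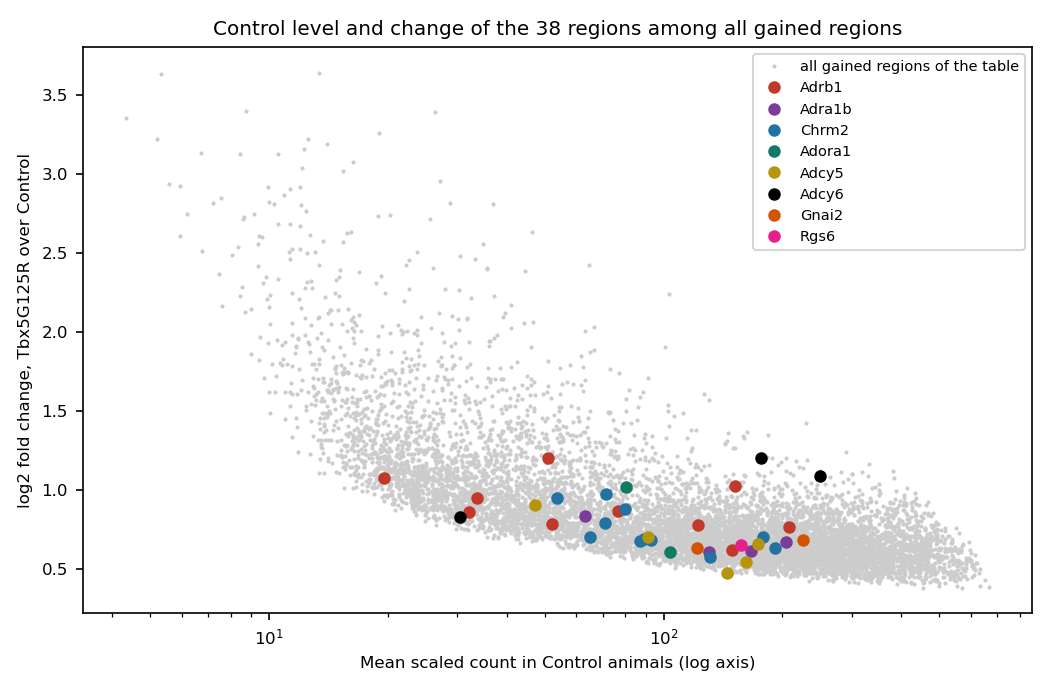
Log2 fold change (Tbx5G125R over Control) against the mean scaled count in Control animals (log axis) for all 8846 gained regions (grey) and the 38 regions of the 8 genes (coloured by gene). Most coloured points lie within the grey cloud at Control levels of 19.5 to 250; regions 1 and 2 of Adcy6 (black) sit near its upper edge for their level.

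Which animal was highest or lowest varied between regions. Among the Control animals, Control 2 was lowest at 16 and highest at 8 of the 38 regions, and Control 4 was highest at 13. Over the whole table, Control 2 was lowest at 29.8% and highest at 30.2% of regions, and Control 4 was highest at 24.6%. Among the Tbx5G125R animals, each was highest at 9 to 11 of the 38 regions (21.7% to 28.6% of the table). Tbx5G125R 4 was lowest at 15 of the 38 regions, and at 25.9% of the table. Leaving out each animal in turn moved the median log2 fold change of the 38 regions to between 0.68 and 0.77. Between the 2 libraries of 1 animal, the SD of the log2 difference over the 38 regions was 0.27 in Control 1 and 0.24 in Control 3.

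Lost regions were found near 3 of the genes, but none close by. Within 250 kb of a span there was 1 near Adrb1 (in Dclre1a), 2 near Adora1 (in Btg2) and 1 near Adcy5 (in Mylk). They lay 122465 to 183617 bp away and belong to those other genes. The same windows held 16 gained regions for Adrb1, 8 for Adora1 and 11 for Adcy5, those of the 3 genes themselves included. Of all listed regions, 11.6% were lost.

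The other genes of the pathway were described from lists of receptors, cyclases, G proteins, regulators and effector channels. Counts are of listed regions in each direction, against the 88.4% and 11.6% of the table. The number of genes with a listed region in each list stands against 5698 of all 21900 protein-coding genes. At 6 of 16 further receptor genes there were 6 gained and 1 lost region. The largest gain was at Adra1d, the third α1 subtype, at 1.96 ± 0.31 from a Control mean of only 11.8 ± 6.50. The next was at Npy1r, a receptor for the sympathetic cotransmitter neuropeptide Y, at 1.69 ± 0.16, 5701 bp outside the span. The third had Adra2a, an inhibitory α2 receptor, as its nearest gene, at 1.41 ± 0.32. It lay 70019 bp outside that span and had a Control mean of only 14.6 ± 7.71. The lost region lay at Adrb3, the β3 receptor, at -0.94 ± 0.29.

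At 3 of 8 further cyclases there were 9 gained regions and none lost. Of these, 7 were at Adcy1, a calcium-stimulated cyclase, with the largest at 1.51 ± 0.19, 1.29 ± 0.26 and 1.05 ± 0.31 (the last 19183 bp outside the span). At 10 of 19 further G protein genes there were 18 gained regions and 1 lost. The largest gains were at Gng7, a γ subunit, at 1.38 ± 0.19 and at Gnao1, the inhibitory αo subunit, at 1.33 ± 0.20 and 1.08 ± 0.24. The lost region lay at Gnas, which encodes the stimulatory α subunit, at -1.09 ± 0.33 with overlapping groups.

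Of 26 regulators of receptor and G protein signalling, 13 had listed regions, 24 gained and 4 lost. The largest gains were at Ric8b, a chaperone of stimulatory α subunits, at 1.37 ± 0.20 and 1.07 ± 0.17, and at Rgs7, a relative of Rgs6, at 1.22 ± 0.24. Those of Ric8b lay 19414 and 9164 bp outside its span. Ric8b and Rgs7 also had a lost region each, at -1.02 ± 0.22 (33414 bp outside the span) and -0.92 ± 0.32 (groups overlapping at Rgs7). The largest loss was at Rgs12 at -1.35 ± 0.30.

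Of the effector channel genes, Hcn4, which encodes a pacemaker channel, had a gained region at 0.64 ± 0.13. Kcnj3 and Kcnj5, the subunits of the atrial potassium channel opened by the M2 and A1 receptors, had 1 region each, at 0.63 and 0.48.

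Marker genes of other cell types were looked up in the same table. Of the 13 neuron and glia markers, Dbh and Th, enzymes of noradrenaline synthesis, had 4 gained regions with a summed scaled count of 503 to 608 in Control and 905 to 1045 in Tbx5G125R animals, whereas the other 11, Chat and Sox10 among them, had none. Endothelial markers had 10 gained regions, 9 of them at Kdr, with sums of 518 to 647 and 1294 to 1348. Fibroblast markers had 2, with sums of 281 to 327 and 463 to 512, and smooth muscle and pericyte markers 3, with 190.4 to 260.02 and 336 to 405. The cardiomyocyte list had 28 gained and 10 lost regions, all of the lost ones at Ryr2, with sums of 6266 to 6918 and 10679 to 11578. Every marker list with a listed region had higher sums in Tbx5G125R animals. The table holds only regions called as different, 88.4% of them gained, so the direction of these sums is no finding. Their size was not tested. The part of other cells in the regions near the 9 genes was not tested.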

How the data were processed

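Per the labels, libraries were made from sorted nuclei of the pooled atria of single animals and sequenced paired-end; the submitters' processing notes name BWA, bedtools, DESeq2 and the build mm10, with no versions. How duplicates, the transposase offset and mitochondrial reads were handled: not given in the sources used here. The authors deposited raw read counts per library for 10010 regions merged from bins of 500 bp, as whole counts in 6 libraries and, in 4, in the form of estimated counts, because the authors wrote 26 counts of 0 as 0.1; these were set back to 0. In the same table the authors deposited a signal per genotype (the geometric mean of the raw counts), an adjusted p-value and a log2 fold change; the first 2 were not used.

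The table gives no library totals, and most of its regions change one way. Libraries were therefore scaled by the median ratio within each genotype, and the 2 genotypes were then aligned by 1 offset (0.30 on the log2 scale, 1.23-fold). Under this offset, fold changes from the counts came closest to the deposited log2 fold changes. The deposited fold changes were used for this scale and for the gained or lost label of each region. The offset was 0.27 from gained and 0.47 from lost regions alone. Levels and calls are therefore not independent of the authors' own.

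Regions were fitted with edgeR 4.0.16 (R 4.3.3, quasi-likelihood, 4 against 4 animals, no covariate, no filter, Benjamini-Hochberg over 10010 regions at 0.05). The biological coefficient of variation was 11.5%. The fit was tested on simulated data with the scale factors given, which does not test the offset. DESeq2 1.42.0 and limma 3.58.1 were alternatives, with other scales, a filter at a mean scaled count of 20, single libraries, omitted animals, a replicate block, a threshold of 0.01 and limits of 10 and 500 kb. Counting error is largest for Control 2, the animal with the fewest counts over the table. Gene spans, names and promoter windows are RefSeq, GRCm38.p6; all coordinates are 1-based. Promoter windows were searched on both strands for 6 short motifs.

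The 9 genes, the pathway and marker lists and the tests were chosen with earlier results of these data known. Regions given in full were, for each gene, those of largest log2 fold change, of highest mean scaled count and over the gene start; for the pathway lists, up to 3 gained and 3 lost regions of largest change were named. Other regions of the 9 genes, and Kcnj3 and Kcnj5, are given in addition. Some results for single pathway and marker genes are not reported here. Each replicate is 1 animal, as the atria of an individual were pooled.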

Additional observations from a re-analysis of the deposited data

Results flagged for a closer look

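In each of the 38 regions and both groups of 4 animals, the highest and the lowest animal were compared with the rest of their group; 4 of the 76 groups held an animal set apart by more than Dixon's critical value for 4 values at the 95% level, and chance alone flags about 1 in 20 groups. At Adra1b region 4, Tbx5G125R 4 had a scaled count of 207.7 against 188 to 191 in the other 3. At Chrm2 region 8, Tbx5G125R 1 had 118.4 against 102 to 105. At Adcy5 region 3, Control 2 had 220.6 against 156 to 160.1, and at Adcy5 region 4, Control 3 had 64.2 against 39.5 to 43.1. The 4 values belong to 4 different animals, each the highest of its group, and 2 of them lie in the same gene. The cause was not tested.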

How the results depend on the processing

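The 38 regions kept their direction and their calls with DESeq2, limma, a filter on low counts, the first libraries alone, a threshold of 0.01 and offsets from gained or lost regions alone, the last 2 chosen after seeing the data; since the table was selected on this contrast, nearly all of its 8846 gained regions did so (8843 to 8846 with other tools, the filter or the first libraries), and kept calls are no sign of stability. With each animal at its own table median, 4 of the 38 (10.5%) were called higher and none lower, against 856 (8.55%) and 1227 (12.3%) of the table, and the median log2 fold change was 0.045. There 6 of the 15 regions with full values turned: Adra1b region 1 to -0.019, Chrm2 region 6 to -0.056, Adora1 region 2 to -0.082, Adcy5 region 3 to -0.030, Gnai2 region 2 to -0.0042 and Rgs6 region 1 to -0.034. A further 6 kept their direction but not their call. This scaling places the middle of the listed regions near 0 by construction. The median was 1.07 with no scaling between libraries and 0.56 with the offset from lost regions alone, with 38 regions called higher each time. Leaving out each animal gave 38 to 38 regions called higher, 0 to 0 called lower (8845 to 8846 higher in the table, so these counts were set by the selection) and medians of 0.68 to 0.77. Limits of 10 and 500 kb gave 27 and 39 regions, all called higher. Deviations of animals with the same number correlated by -0.00073 to 0.17. Without the same value for animals of different number, this cannot tell whether the numbers pair the samples. With the replicate block 38 regions were called higher, 0 lower, and the median was 0.73. No region of the 9 genes was lost, so a median over lost regions had no value. Depth limits the regions of lowest count: Control 2 had 6 reads at Adrb1 regions 4 and 10.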
